A study of Mus musculus with 4 samples.

Results

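The genes described here belong to the Wnt, Notch and TGF-beta signalling pathways and were read in the prefrontal cortex of mice with a transgene for the synaptic form of human acetylcholinesterase (AChE), which hydrolyses the neurotransmitter acetylcholine. They were chosen by gene symbol alone: every probe set with a single gene whose symbol begins with Wnt, Fzd, Dvl, Sfrp, Notch, Dll, Jag, Hes, Hey, Bmp, Smad, Madh, Tgfb, Acvr or Gdf, plus Gsk3b, Axin1 and Axin2. The choice gave 105 probe sets of 82 genes, out of 12422 probe sets and 8251 named genes, and no probe set with Gsk3b as its single gene was found. Each of the 4 arrays held RNA pooled from 4 female mice. The 2 control pools came from the FVB/N strain, and the 2 transgenic pools came from females carrying the human synaptic AChE transgene. Neither the promoter that drives the transgene, nor the strain that carries it, nor the age of the mice is stated in the labels. Whether both pools of a group were made from different mice is not stated either. The p-values therefore rest on the spread between arrays of a group, which may be technical. That spread was taken partly from the probe set itself and partly from probe sets of similar brightness.

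The 3 pathways carry signals between neighbouring cells. Wnt ligands bind Frizzled receptors (Fzd genes), and the signal passes through Dishevelled proteins (Dvl genes), which hold back the complex of Axin and glycogen synthase kinase that marks beta-catenin for destruction. Secreted Sfrp proteins bind Wnts outside the cell. Notch receptors are activated by Delta and Jagged ligands on a touching cell. The released Notch fragment switches on some of the repressors of the Hes and Hey families. Ligands of the TGF-beta superfamily (TGF-betas, BMPs, GDFs and activins) assemble pairs of type I and type II receptor kinases, which phosphorylate Smad proteins. Smad4 is the shared partner of the phosphorylated Smads, while Smad6 and Smad7 inhibit the signal. In the brain these pathways are best known for patterning, neural stem cell maintenance and synapse formation, and several stay active in adult neurons, astrocytes and vessels.

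Median intensity over all probe sets lay between 86.6 and 88.2 on the 4 arrays, and precision is limited by there being 2 arrays in each group. Some checks of the labels bear on the groups as a whole. The mouse Ache probe set (104650_at), which may not detect the human transgene, read 599.5 and 621.9 in control pools and 365.3 and 355.6 in transgenic pools. All pools are labelled female, yet Xist (99126_at) read only 29.3 and 21.1 in control pools, against 178.5 and 228 in transgenic pools. The Y-linked genes were low in both groups: Kdm5d read 2 to 5.5 and Eif2s3y 2.2 to 13.9 over the 4 arrays, and Uty read 28 and 5.4 against 13.6 and 3.2. Of 8 neuronal markers 7 were on the array, and all 7 were well enough expressed to be tested. Their summed intensity, taking the brightest probe set of each gene, was 16271 to 16455 in control pools and 12860 to 14968 in transgenic pools. Of these, Camk2a and Snap25 passed as lower. Snap25, the largest part of the sum, read 9424.2 and 8868.3 against 6878 and 7243.5. Gad1 read higher, at 2409.2 and 2549.3 against 3035.8 and 3198.5, and Nefl had a log2 change of 0.28 ± 0.31, but neither passed. Syt1, Stmn2 and Gad2 had negative changes and did not pass. Astrocyte markers summed to 6419 and 6606 against 6343 and 6811, while 1 of them, the water channel gene Aqp4, passed as higher (102704_at; 36.7 and 47.5 against 424.3 and 684.5, limma adjusted p = 1.49e-05). Microglial markers (7 of 7 on the array) summed to 2159 and 2176 against 1680 and 1889, and Tyrobp passed as lower. Oligodendrocyte markers summed to 3162 and 3809 against 2860 and 3216, with Cnp at the floor on every array. At the brightest probe set of each gene none passed, and that of Mobp (100536_at) had a log2 change of 0.06 ± 0.15. A dimmer Mobp probe set (99047_at) passed as lower, at 521.7 and 690.6 against 256.9 and 342.2 (limma adjusted p = 0.0095). The list for meninges and choroid plexus summed to 2895 and 3515 against 2875 and 3123, with Kl at the floor. Blood markers (Hba-a1 and Alas2) summed to 2396 and 2779 in control pools and 6945 and 8473 in transgenic pools, and both genes passed as higher. The part of these differences in the results below was not tested.

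Promoter windows are shown first for the members that rose and whose window could be printed, as the 250 bases before an annotated transcript start in the RefSeq table for GRCm38.p6. These members are the activin receptor gene Acvr2b at chr9:119401928-119402177, the Frizzled gene Fzd4 at chr7:89404116-89404365 and the ligand gene Wnt4 at chr4:137277385-137277634, all on the plus strand. Smad4 rose as well, but its window is not shown. The distance in bases from the window end to the gene start was 1 for Fzd4 and Wnt4 but -594 for Acvr2b. The Acvr2b window thus lies past the start of the annotated gene. Capitals mark matches to any of 6 motifs searched on both strands. They are the core of the Notch partner RBPJ (TGGGAA), the TCF/LEF core of Wnt signalling (CTTTGA), the Smad box (CAGACA) and Smad palindrome (GTCTAGAC), and the E-box (CACGTG) and N-box (CACNAG) bound by Hes-type repressors.
Acvr2b: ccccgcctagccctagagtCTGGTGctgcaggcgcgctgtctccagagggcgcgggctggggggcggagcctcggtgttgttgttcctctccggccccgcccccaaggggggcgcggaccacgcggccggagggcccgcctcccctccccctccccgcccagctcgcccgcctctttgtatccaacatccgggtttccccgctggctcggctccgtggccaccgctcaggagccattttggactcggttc
Fzd4: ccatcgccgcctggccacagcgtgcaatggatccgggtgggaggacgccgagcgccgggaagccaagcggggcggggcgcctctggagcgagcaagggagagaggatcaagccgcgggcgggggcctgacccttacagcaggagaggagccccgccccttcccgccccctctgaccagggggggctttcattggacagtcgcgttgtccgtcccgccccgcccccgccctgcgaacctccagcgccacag
Wnt4: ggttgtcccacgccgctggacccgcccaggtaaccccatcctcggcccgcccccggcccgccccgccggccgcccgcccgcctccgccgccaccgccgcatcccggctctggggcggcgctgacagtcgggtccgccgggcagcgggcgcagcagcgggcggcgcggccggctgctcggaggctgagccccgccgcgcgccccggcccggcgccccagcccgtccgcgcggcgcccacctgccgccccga
The windows are rich in G and C, at 72.8% for Acvr2b, 72.8% for Fzd4 and 85.2% for Wnt4, against a median of 52.4% over all 32851 promoter windows of the same length in the table and 66.8% over the 65 windows that matched 54 of the 82 member genes. The number of CpG dinucleotides was 24 in Acvr2b, 25 in Fzd4 and 44 in Wnt4, against a median of 6 over all windows and 22 over those of the members. The only match in these 3 windows was an N-box in Acvr2b, whose match on the plus strand reads CTGGTG and starts 231 bases before the transcript start. An N-box was found in 36.7% of all windows and 20% of the member windows. The RBPJ core was found in 21.6% of all windows and 16.9% of the member windows, the TCF/LEF core in 13.8% and 4.62%, the Smad box in 17.1% and 18.5% and the E-box in 6.02% and 10.8%. The Smad palindrome was found in 0.167% of all windows and in 0 of the 65 member windows. The motifs did not overlap in the windows shown. A match is a description of the letters and does not show a site that is used.

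The comparison asked which members differed between transgenic and control cortex. Acvr2b, Smad4, Fzd4 and Wnt4 rose and Bmp1 fell in transgenic pools. Of the 105 member probe sets, 50 (44 genes) lay above the intensity filter and were tested. With limma's adjusted p under 0.05, 4 rose and 1 fell, which is 10.0% of those tested. Over all 7453 tested probe sets 10.0% passed, 5.46% higher and 4.56% lower, so the share among the members equals the background. Of the 50, 15 were higher in both transgenic pools without overlap of the groups, and 14 were lower. Over all tested probe sets 23.8% were higher without overlap and 29.9% lower, 53.7% in all. The median log2 change was 0.01 over the tested members (quartiles -0.24 and 0.25) and -0.03 over all tested probe sets (quartiles -0.26 and 0.21). Changes were mostly small: 37 of the 50 lay within 0.5 of 0 on the log2 scale, as did 81.0% of all tested probe sets. Of the 50, 6 passed the filter on the mean of the 4 arrays while 1 group lay below it, among them Acvr2b and Wnt4. Without the filter 48 of 12422 probe sets passed (0.386%), and 0 of 105 members did. Without control replicate 2, 6 members rose and 3 fell; without either transgenic replicate, 2 rose and 2 fell, when 303 and 313 probe sets passed in all. In the fit without the filter, by adjusted p the 5 members above had 0.0968 (Acvr2b), 0.106 (Smad4), 0.119 (Fzd4), 0.309 (Bmp1) and 0.42 (Wnt4).

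**Figure D1:**
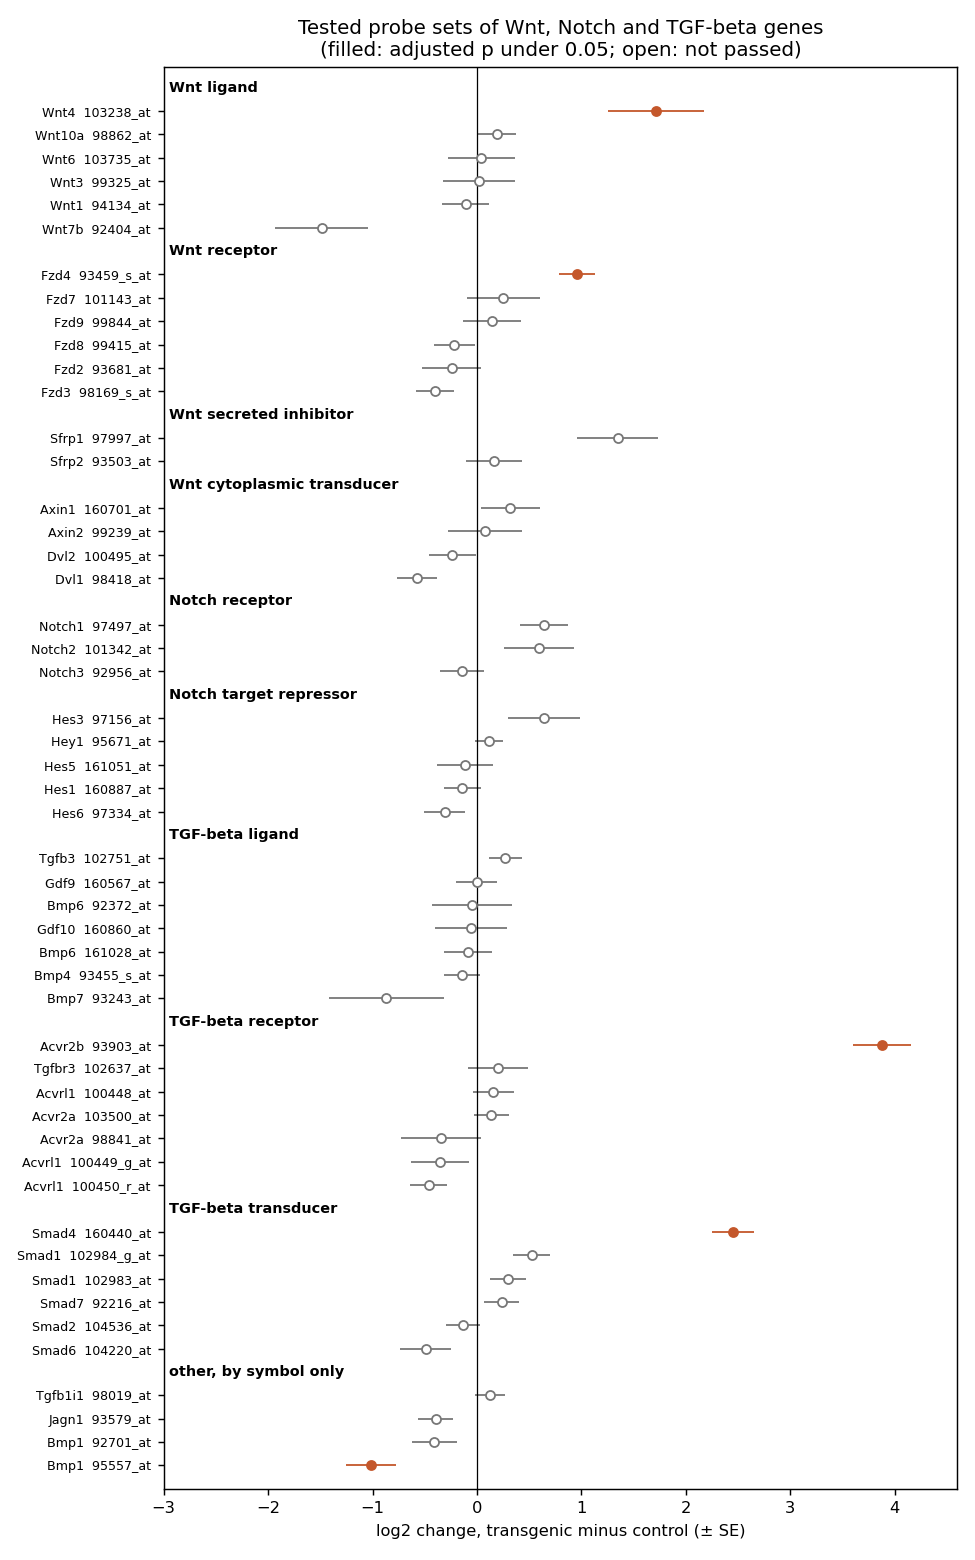
Log2 change from control to transgenic pools (horizontal axis, points with SE from the limma fit, 2 pools per group) of the 50 tested member probe sets, grouped by pathway and role; filled points passed at an adjusted p under 0.05. Acvr2b and Smad4 stand farthest to the right, at 3.88 and 2.45, and no tested Notch member is filled.

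The plot of level against change sets the members among all probe sets. Acvr2b and Smad4 lie in the band of rises over 2 log2 units, which other genes of similar brightness also reach.

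**Figure D2:**
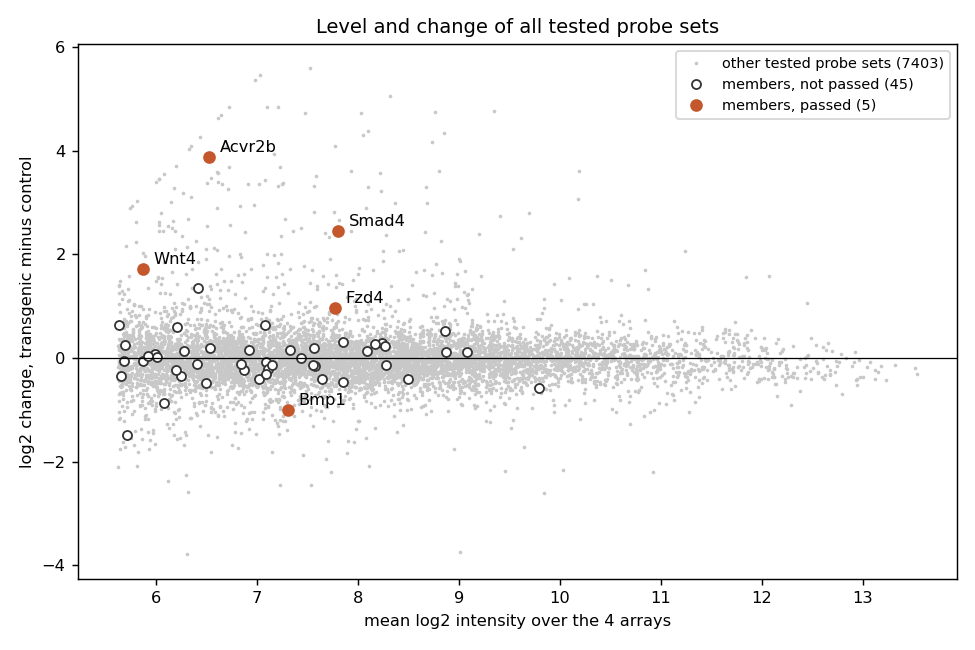
Log2 change (vertical axis) against mean log2 intensity over the 4 arrays (horizontal axis) for all 7453 tested probe sets, with the 50 members as circles. The 5 members that passed are filled and named, and the other members lie within the spread of the grey points.

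Among the Wnt ligands, secreted lipid-modified proteins that act at short range, Wnt4 rose. Its probe set (103238_at) read 19.1 and 53.1 in control pools and 123.5 and 90.6 in transgenic pools. Both transgenic pools were above both control pools, and control pool 1 lay at the floor of 19.675 below which values were not ranked. The control mean of Wnt4, 36.1, lay under the filter, so it was tested through the group where it is high. The log2 change was 1.71 ± 0.46 (SE, n = 2 in each group; limma adjusted p = 0.0454). This call was close to the threshold: the adjusted p was 0.0502 with a robust prior, 0.0656 after quantile normalization and 0.115 without the intensity trend. The log2 change was 0.99 without control replicate 1 and 2.43 without control replicate 2. It was 1.49 and 1.93 without transgenic replicate 1 or 2, and 1.02 with the floor at the 40th percentile. In any fit without 1 array, the lone pool of a group is assumed to vary like the others. A p-value from such a fit, here or below, rests on that assumption. Wnt7b, a ligand with known roles in brain vessel growth and dendrites, read 91.6 and 84.4 in control pools and 16.8 and 50 in transgenic pools (92404_at). Both transgenic values were below both control values but far from each other, and the log2 change of -1.49 ± 0.45 did not pass (limma adjusted p = 0.0695). It passed when control replicate 2 (0.0489) or transgenic replicate 2 (0.0356, log2 change -2.16) was left out, but not without control replicate 1 (0.0863) or transgenic replicate 1 (0.189, log2 change -0.81). The other 4 tested ligands, Wnt1, Wnt3, Wnt6 and Wnt10a, had log2 changes between -0.11 and 0.19 and did not pass. Of 16 Wnt ligand probe sets, 10 were under the filter, with values from 1.8 to 55.1, and 4 of those lay at the floor on every array.

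Of the Frizzled receptors, the transmembrane proteins that bind Wnts, Fzd4 rose. Fzd4 is also the receptor for norrin and is known for its role in retinal and brain vessels. The probe set 93459_s_at read 167.7 and 146.2 in control pools and 297.6 and 312 in transgenic pools. The replicates of each group were close to one another and the groups did not overlap. The group means were 157 ± 15.2 and 305 ± 10.2 (SD, n = 2). The geometric mean rose 1.95-fold, a log2 change of 0.96 ± 0.17 (SE; limma adjusted p = 0.00727). The adjusted p was 0.0730 and 0.0959 without transgenic replicate 1 or 2. Endothelial and mural markers (8 of 8 on the array, 5 tested) summed to 781 and 818 in control pools and 979 and 1050 in transgenic pools. Of these markers Flt1, a receptor for vascular growth factor, rose at both of its probe sets, by 0.85 and 3.03 on the log2 scale. Cldn5, a tight junction protein, read 269.9 and 296.8 against 461.9 and 374.4 without overlap (0.56 ± 0.17, adjusted p = 0.0686), whereas Pecam1, Cdh5 and Acta2 had log2 changes of -0.18, 0.17 and -0.19 and did not pass. Whether the vascular markers have a part in the Fzd4 difference was not tested, and in tissue RNA more cells of a type and more RNA per cell cannot be told apart. Fzd3, a receptor of axon guidance, read 211.8 and 248.6 against 165.6 and 182.2 (98169_s_at; log2 change -0.40 ± 0.18, limma adjusted p = 0.214). Fzd2, Fzd7, Fzd8 and Fzd9 had log2 changes from -0.24 to 0.25 and did not pass. Another 5 Frizzled probe sets lay under the filter, including 2 of Fzd4.

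Neither tested gene of the secreted inhibitors passed. Sfrp1 read 34.5 and 83.4 in control pools and 123.2 and 151.1 in transgenic pools (97997_at). Both transgenic values were above both control values, but control pool 1 was less than 0.5 of control pool 2. The log2 change was 1.35 ± 0.39 (limma adjusted p = 0.0595). It passed with log2(value + 16) in place of the floor (0.0492). The log2 change was 1.98 without control replicate 2 but 0.71 without control replicate 1. It was 1.49 and 1.20 without transgenic replicate 1 or 2. Sfrp2 had 0.16 ± 0.27. Among the cytoplasmic transducers 0 of 4 tested genes passed. Dvl1, the brightest member of all, read 1129.6 and 1033.1 in control pools and 903.5 and 582 in transgenic pools (98418_at; log2 change -0.58 ± 0.19, limma adjusted p = 0.0963). The transgenic pools were both lower but differed from each other more than the control pools did, and the adjusted p was 0.0325 without control replicate 2 and 0.0399 without transgenic replicate 1, but 0.124 without control replicate 1 and 0.376 without transgenic replicate 2, where the log2 change was -0.26. Dvl2, Axin1 and Axin2, the last a gene that canonical Wnt signalling switches on, had -0.23 ± 0.22, 0.32 ± 0.28 and 0.08 ± 0.36.

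**Figure D3:**
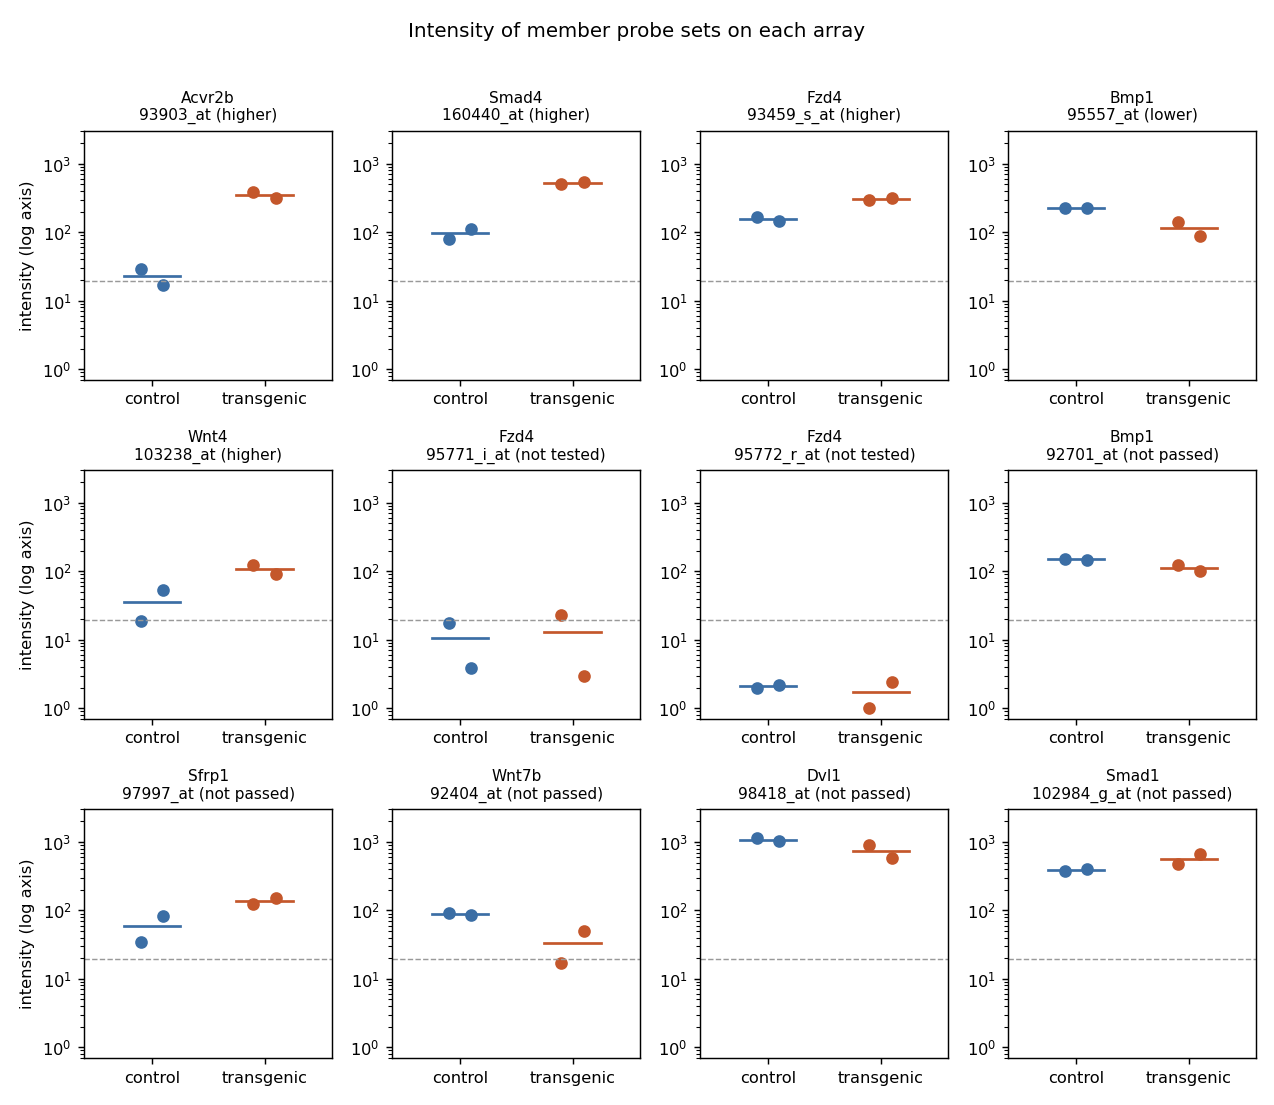
Intensity on each array (log axis; points are pools, short lines are group means, the dashed line is the floor of 19.675) for the 5 members that passed, the other probe sets of Fzd4 and Bmp1, and 4 more members that did not pass. In Acvr2b, Smad4 and Fzd4 the pools of a group lie close together and the groups are apart, whereas Wnt4, Sfrp1 and Wnt7b have 1 pool well apart from its partner.

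No tested Notch member passed: 0 of 8 probe sets by limma, with 1 at an unadjusted p under 0.05, where 24.3% of all tested probe sets had one. That 1 was Notch1, the receptor best known from neural stem cells and also found in neurons. It read 91 and 129.8 in control pools and 171.8 and 166.5 in transgenic pools (97497_at; log2 change 0.64 ± 0.23, limma adjusted p = 0.121). The transgenic values were both above the control values, and the adjusted p was 0.0488 without control replicate 2 and 0.544 without control replicate 1, where the log2 change was 0.38. The second Notch1 probe set (162204_r_at) lay under the filter and went the other way, with 46.2 and 38.3 against 23.4 and 32.1. Notch2 read 80.3 and 45 against 101.1 and 81.2 (101342_at; 0.59 ± 0.34, adjusted p = 0.326), and Notch3, a receptor of mural cells, had -0.14 ± 0.21. Among the Hes and Hey genes, not all of which need follow Notch, Hes3 read 35.3 and 44.6 against 64.4 and 59.6 (97156_at, 0.64 ± 0.35, limma adjusted p = 0.297). Hey1 was the brightest Notch member, at 511.8 and 523.4 against 562.1 and 561.5 (95671_at). Its groups did not overlap, but the log2 change was only 0.12 ± 0.13 (adjusted p = 0.651). Hes1, Hes5 and Hes6 had changes between -0.31 and -0.11. All 3 probe sets of the ligands Dll1 and Jag2 lay under the filter, with values from 3.6 to 64.9, so ligand levels could not be compared.

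Ligands of the TGF-beta superfamily gave no call: 0 of 7 tested probe sets passed by limma, and 0 had an unadjusted p under 0.05 (24.3% of all tested probe sets). Tgfb3 read 263.3 and 261.4 against 336.6 and 297.8 (102751_at; log2 change 0.27 ± 0.16, adjusted p = 0.345). Bmp7 read 88.3 and 94.3 in control pools but 24.5 and 102.3 in transgenic pools (93243_at), so 1 transgenic pool stood far below the other 3 arrays. Its log2 change was -0.87 ± 0.55. Bmp4, Bmp6 (2 probe sets), Gdf9 and Gdf10 had changes between -0.15 and 0.00. The other 16 ligand probe sets, among them those of Tgfb1, Tgfb2, Bmp2 and Bmp5, lay under the filter, and 6 of them were at the floor on every array.

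Among the receptors, Acvr2b rose farthest of all members. It encodes a type II receptor kinase for activins, myostatin and several BMPs. Its probe set (93903_at) read 29.4 and 17 in control pools and 391.3 and 319.3 in transgenic pools. The control pools lay at or near the floor and both transgenic pools were far above it. The log2 change was 3.88 ± 0.28 (at least 14.7-fold, since 1 control array was at the floor; limma adjusted p = 1.64e-05). The closely related type II receptor Acvr2a did not pass at either of its probe sets, with 0.14 ± 0.17 at 103500_at (240 and 279.8 against 290.1 and 279.9) and -0.34 ± 0.39 at 98841_at. Acvrl1, a type I receptor of endothelial cells, had 0.16 ± 0.20, -0.35 ± 0.27 and -0.46 ± 0.17 at its 3 probe sets, the last with an adjusted p of 0.134 (100450_r_at; 267.3 and 276.1 against 215.2 and 180.3). Tgfbr3, the co-receptor betaglycan, had 0.20 ± 0.28. Type I receptors Acvr1, Acvr1b, Bmpr1a, Bmpr1b and Tgfbr1 and the type II receptors Bmpr2 and Tgfbr2 lay under the filter, with values from 1.1 to 111.1.

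Smad4 rose as the only 1 of 6 tested Smad probe sets to pass. It read 80.1 and 113.1 in control pools and 507.3 and 532.9 in transgenic pools (160440_at). All 4 arrays were well above the floor, and the groups were far apart. The group means were 96.6 ± 23.3 and 520 ± 18.1 (SD, n = 2). The geometric mean rose 5.46-fold, a log2 change of 2.45 ± 0.20 (SE; limma adjusted p = 3.97e-05). With any 1 of the 4 arrays left out, the log2 change of Smad4 was 2.20 to 2.70. That of Acvr2b was 3.59 to 4.17. The control mean of Acvr2b, 23.2, lay under the filter, so it was tested through the group where it is high. Each fit without 1 array kept the same 7453 probe sets, so none tested that entry again. Acvr2b was not fitted with the higher filter. Without the filter the limma adjusted p was 0.0968 for Acvr2b and 0.106 for Smad4. The receptor-activated Smad of the BMP branch, Smad1, read 378.9 and 398.1 against 470.2 and 662.2 at 102984_g_at (0.52 ± 0.18, adjusted p = 0.105). Its other probe set, made from the same source sequence, had 0.30 ± 0.17. Smad2, which carries activin and TGF-beta signals, read 330.1 and 318.7 against 274.6 and 319 (104536_at; -0.13 ± 0.16, adjusted p = 0.678). The inhibitory Smads pointed to opposite sides of 0 and neither passed: Smad6 had -0.49 ± 0.24 (102.9 and 111.6 against 74 and 78.6; adjusted p = 0.255) and Smad7 had 0.24 ± 0.17. Smad3 and Smad5 lay under the filter.

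Genes that share only letters of their symbols with the pathways included the member that fell. Bmp1 is no BMP but a secreted metalloprotease that trims procollagen and chordin. Its probe set 95557_at read 223.9 and 225.4 in control pools and 139.1 and 89.1 in transgenic pools. Both transgenic values lay below the control values, which were nearly the same. The group means were 225 ± 1.06 and 114 ± 35.4 (SD, n = 2). The geometric mean fell 2.02-fold, a log2 change of -1.01 ± 0.24 (SE; limma adjusted p = 0.0263). The adjusted p was 0.0826 without the intensity trend and 0.144 without transgenic replicate 2. A second Bmp1 probe set (92701_at) read 152.3 and 147.3 against 124.9 and 102.1, with the same sign but no call (-0.41 ± 0.21, adjusted p = 0.282). Jagn1, an endoplasmic reticulum protein unrelated to Jagged, read 371.9 and 461.7 against 302.9 and 327.4 (93579_at; -0.40 ± 0.17, adjusted p = 0.175). Tgfb1i1, a focal adhesion adaptor, had 0.12 ± 0.15, and both probe sets of Tgfbi and that of Bmp2k lay under the filter.

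Members read by several probe sets often had only 1 that gave signal. Of the 82 genes, 19 had more than 1 probe set, and only 5 of these had more than 1 above the filter: Acvr2a, Acvrl1, Bmp1, Bmp6 and Smad1. The 2 further Fzd4 probe sets, 95771_i_at (17.6 and 3.9 against 23.1 and 3) and 95772_r_at (2.4 or less on every array), gave too little signal to check the rise at 93459_s_at. Acvr2b, Smad4 and Wnt4 had 1 probe set each, so no second reading of them exists here. Probe sets whose name ends in _r_at were mostly dim: 1 of 11 was tested, and their median intensity was 18.1, against 52.2 for the 85 with a plain _at ending, of which 44 were tested.

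**Figure D4:**
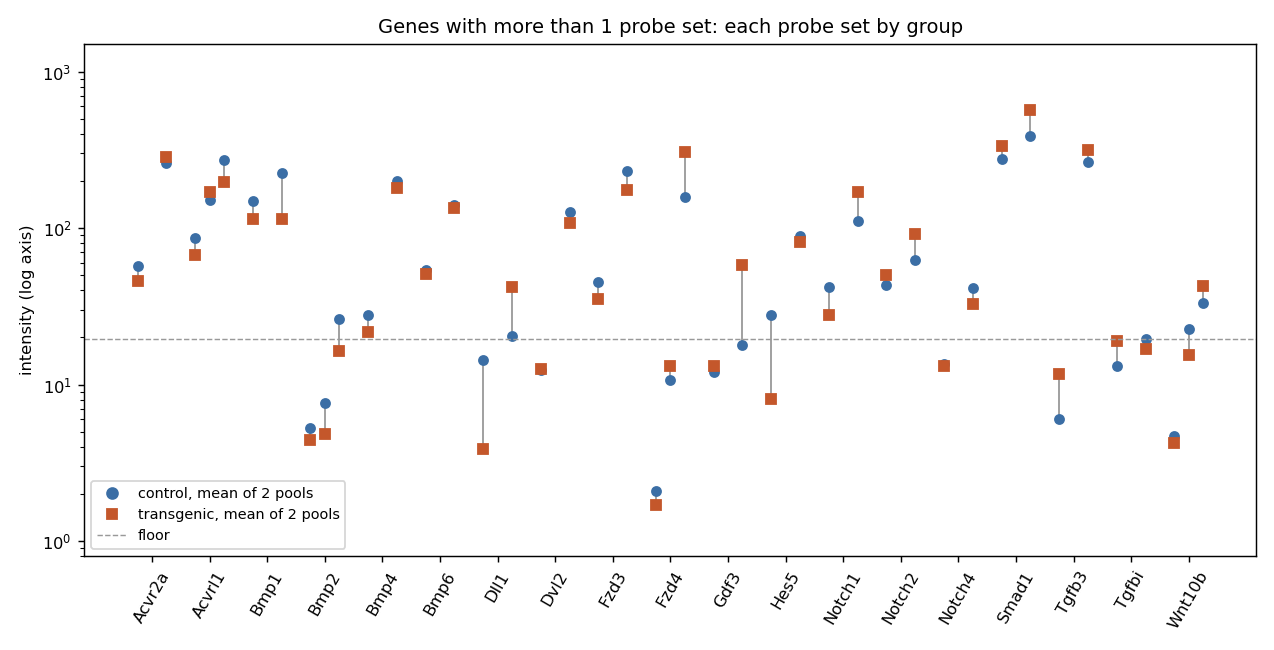
Mean intensity (log axis) in control pools (circles) and transgenic pools (squares) for every probe set of the 19 member genes with more than 1; the dashed line is the floor of 19.675. Smad1 read higher and Bmp1 lower in transgenic pools at both of their probe sets, of which only 1 of Bmp1 passed, and Fzd4 had 2 of 3 probe sets below or near the floor.

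In all, 55 member probe sets, including all those of 38 genes, lay under the filter and were not tested. Their groups did not overlap in 12 cases once values were floored, and 16 were at the floor on every array. Under the filter 17.7% of all probe sets had groups that did not overlap. Among those whose deposited values did not overlap, the ratio of group means was farthest from 1 for Wnt5a, Tgfbr2, Hes5, Gdf3, Tgfb2 and Bmp10. Tgfb2, a TGF-beta isoform made by neurons and glia, read 16.3 and 27.4 in control pools and 66.3 and 74.3 in transgenic pools (93300_at). Gdf3 read 20.7 and 15.1 against 73.3 and 43.3 (92476_at). In both, 1 control pool lay under the floor and the other above it, and both transgenic pools were higher. The second Hes5 probe set (162069_at) read 33.1 and 22.7 against 6.4 and 9.7, while the tested one (161051_at) had -0.11 ± 0.27. Wnt5a was above the floor only in transgenic pool 2, at 47.1 (99390_at), and Bmp10 only there at 20.2 (101815_at). Tgfbr2 lay under the floor on all arrays (94702_at), so its order has no meaning.

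Further genes of the pathways came from a list of ligands, modulators, kinases and targets that the symbol rule does not take: 75 of them were on the array with 96 probe sets, and 68 probe sets were tested. The list was written with earlier results of these data known, so its share of calls is a description only. Its median log2 change was 0.00, against -0.03 over all tested probe sets. Of the 68 tested probe sets 4 rose and 6 fell, 14.7% against the background of 10.0%. The falls include both Csnk2a1 probe sets made from one source sequence. Without transgenic replicate 1 the counts were 3 and 1, without transgenic replicate 2 they were 3 and 3, and without control replicate 1 they were 7 and 6. In the TGF-beta list 2 rose and 2 fell of 17, and in the Wnt list 2 rose and 4 fell of 35. In the Notch list 0 of 16 passed by limma, with 2 at an unadjusted p under 0.05 (24.3% of all tested probe sets).

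Genes of activin and inhibin moved in both directions. Inhba, whose product pairs into activin A, read 40.6 and 49.9 in control pools and 125.1 and 151.7 in transgenic pools (100277_at; 3.06-fold higher, log2 change 1.61 ± 0.27, limma adjusted p = 0.00506). Inha, the alpha subunit that turns the dimer into the antagonist inhibin, read 230.6 and 321.3 against 151.4 and 121.7 (102266_at; 2.01-fold lower, SE of the log2 change 0.22, adjusted p = 0.0185). Both transgenic pools were thus higher for Inhba and lower for Inha. The control mean of Inhba lay under the filter, so it was tested through the group where it is high. Without transgenic replicate 1 or 2 neither gene passed, with adjusted p of 0.0543 and 0.0897 for Inhba and 0.0885 and 0.176 for Inha. Inha did not pass without control replicate 2 (0.0851) or without the intensity trend (0.0696) either, and without the filter the adjusted p was 0.17 for Inhba and 0.277 for Inha. The activin-binding protein gene Fst, named here after its values were seen, lay under the filter at 5.5 and 26.6 against 54.5 and 38.5. Id4, a dominant-negative helix-loop-helix regulator of the family that BMP signals induce, read 225.5 and 240.2 against 824 and 809.5 (96144_at; 3.51-fold higher, 1.81 ± 0.14, adjusted p = 2.8e-05). The other Id genes, also named after their values were seen, did not pass, with -0.19 ± 0.23 for Id1, 0.36 ± 0.11 for Id2 and 0.29 ± 0.18 for Id3. Ltbp4, which anchors latent TGF-beta in the matrix, fell by 0.85 ± 0.16 on the log2 scale (97347_at; 792.3 and 864.7 against 525.9 and 401.5, adjusted p = 0.00935); it did not pass without the intensity trend (0.0696) or with transgenic replicate 2 left out (0.0936).

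On the Wnt side, the kinase gene Csnk1e, which phosphorylates Dishevelled, rose 3.24-fold, from 218.4 and 229.4 to 745.7 and 706.1 (97925_at; log2 change 1.70 ± 0.15, limma adjusted p = 4.95e-05). The corepressor gene Ctbp2 rose 2.96-fold, from 79.4 and 91 to 248.8 and 253.7 (92554_at; adjusted p = 0.000734), while its second probe set had 0.47 ± 0.19 and did not pass. Dkk3, a secreted protein of the Dickkopf family, read 1362.8 and 1017.6 against 537.5 and 685.4 (93188_at; -0.96 ± 0.18, adjusted p = 0.00792). The kinase subunit gene Csnk2a1 fell at both probe sets made from one source sequence, by 1.32 and 1.49 on the log2 scale (104545_at and 104546_g_at). Its 2 other probe sets had 0.23 and 0.21 and did not pass. Csnk1d fell by 1.01 at 97263_s_at (adjusted p = 0.00445), whereas 97262_at, from another source sequence, read higher in both transgenic pools (996.8 and 748.5 against 1225.3 and 1171.3; 0.47 ± 0.15, adjusted p = 0.0882). Without transgenic replicate 1 the adjusted p was 0.0529 and 0.0634 for Csnk2a1, 0.0561 for Csnk1d at 97263_s_at and 0.12 for Dkk3. Dkk3 also did not pass without the intensity trend (0.074) or with transgenic replicate 2 left out (0.0607). The other probe sets of Ctbp2, Csnk2a1 and Csnk1d are named after their values were seen. Ctnnb1, which encodes beta-catenin, had 0.10 ± 0.13 and did not pass. Without the filter on dim probe sets 2 of these 10 probe sets still passed, those of Id4 and Csnk1e.

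**Figure D5:**
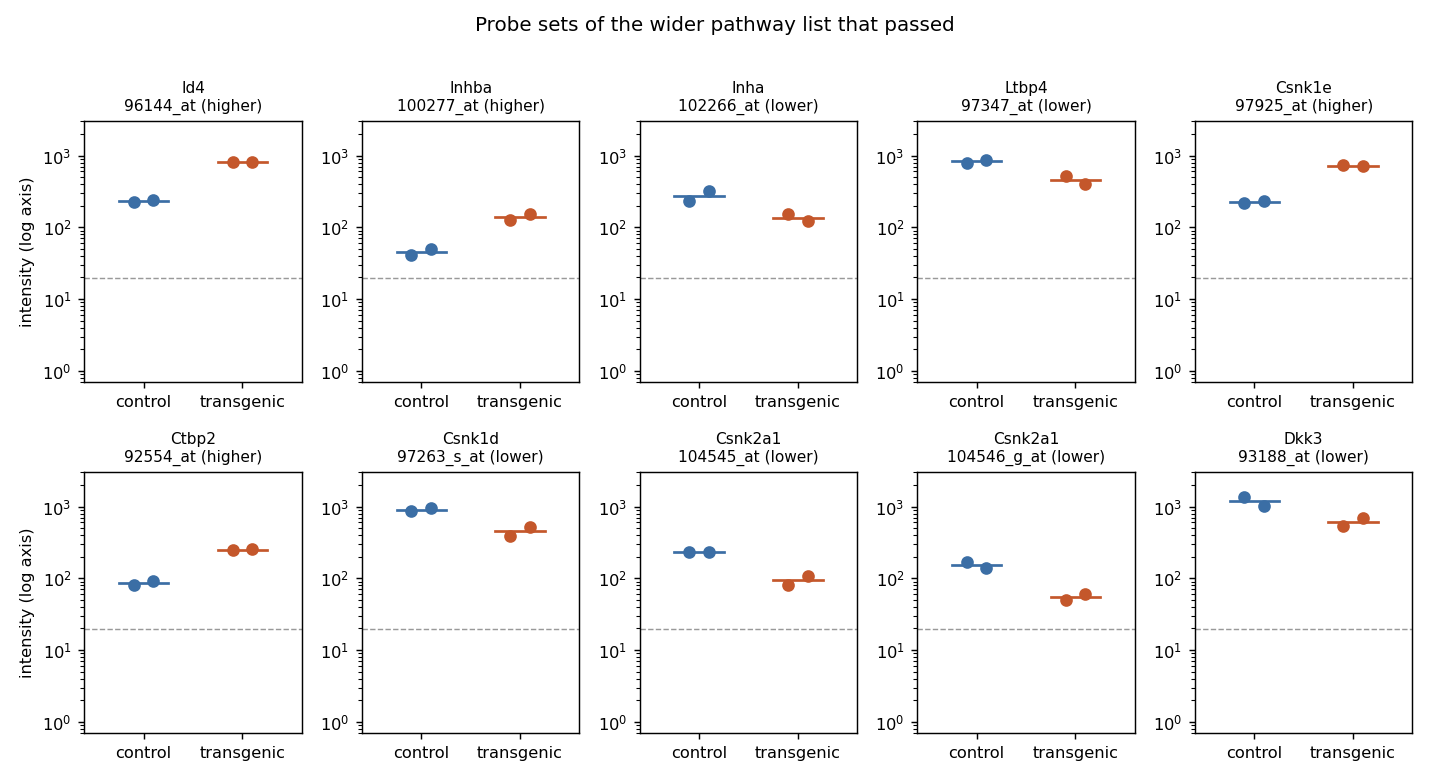
Intensity on each array (log axis; points are pools, short lines are group means, the dashed line is the floor) for the 10 probe sets of the wider pathway list that passed. Id4, Inhba, Csnk1e and Ctbp2 are higher in both transgenic pools and the other 6 probe sets are lower, with no overlap between groups in any panel.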

How the data were processed

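RNA of 2 control and 2 transgenic pools was measured on 1 array each, with groups and replicate numbers taken from the sample titles. The deposited table holds a linear intensity per probe set; its unit was read from the values, and the authors' tool is not stated in them. Each array's mean, trimmed of 2% of its values at either end, was 249.5 to 249.6, so the deposited intensities were already on 1 common scale. Control probe sets (66 of 12488) were left out. Genes came from the platform annotation, where 396 probe sets had several genes and 1193 none; all 105 members matched RefSeq gene identifiers (GRCm38.p6). The members, lists and tests were chosen with earlier results of these data known.

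Values were floored at the 25th percentile (19.675) and log2-transformed. Probe sets with a mean log2 value above the 40th percentile (an intensity of 49.4) were tested as transgenic minus control with limma 3.58.1 in R 4.3.3 (eBayes with an intensity trend, two-sided, Benjamini-Hochberg adjustment over 7453 probe sets, threshold 0.05; 2 residual and 7.51 prior degrees of freedom). The code of the fit was also run on simulated data with independent noise, which cannot bear on how the pools were made. A fold is a ratio of geometric means of floored values, SEs come from the fit, and SDs are over 2 pools. Probe sets described by rule were members that passed, their other probe sets, the 12 of smallest p that did not pass and the 6 brightest. The rule also took 6 under the filter and up to 12 of the wider list that passed. Members outside this rule, such as Bmp7, Tgfb3, Notch3 and Smad7, were named with their values known. Alternatives changed the floor, pseudocount, filter, scaling, trend, prior, replicate block and the arrays left out.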

Additional observations from a re-analysis of the deposited data

How the results depend on the processing

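Over 13 alternatives no log2 change of a probe set described by rule reversed its sign where it could be fitted. Of 377 comparisons of such a probe set with an alternative, 330 kept their side of the threshold, 37 lost a call and 10 gained one. The other 30 tested members turned sign in 26 of 367 comparisons, over 16 probe sets, and 1 call was gained. The largest main log2 change to turn was that of Bmp7, at -0.87. Without the filter on dim probe sets 48 probe sets passed in all, 0 members rose, 0 fell, and 2 of the wider list rose and 0 fell. With a filter at the 60th percentile only 21 members were fitted, without Acvr2b and Wnt4. Of these 21, 2 rose, and their median log2 change was 0.12. Without the intensity trend 395 probe sets passed, 0 members fell and 3 of the wider list fell. Leaving out 1 array at a time gave 303 to 749 probe sets in all, 2 to 6 members that rose and 1 to 3 that fell, 3 to 7 and 1 to 6 of the wider list, and a member median of -0.068 to 0.030; the lone array of a group is then assumed to vary like the others. That call was Bmp7 as lower without transgenic replicate 2 (-1.90, limma adjusted p = 0.0427). With the replicate number as a block 892 probe sets passed and 3 members fell, Bmp1 with Dvl1 and Wnt7b (adjusted p = 0.0343 and 0.0463), and Sfrp1 rose as well (0.0169). The numbers are not stated to pair the pools, and deviations of same-numbered pools correlated at 0.06. Intensities near the floor limit what can be said of the 55 untested probe sets. The cause of these differences was not tested.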
